A study of Mus musculus with 6 samples.

Results

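The genes described here are 10 fibroblast growth factor (FGF) genes, chosen by symbol as 6 ligands (*Fgf1*, *Fgf2*, *Fgf7*, *Fgf8*, *Fgf10* and *Fgf18*), 3 receptor tyrosine kinases (*Fgfr1*, *Fgfr2* and *Fgfr3*) and the kinase-less receptor *Fgfrl1*. All 10 symbols were found among the 24421 rows of a table of gene levels in sorted cells of the mouse aorta. The libraries came from aortic root and ascending aorta of 129S6/SvEv mice killed at 8 weeks of age, all carrying the Cre-dependent nuclear reporter *CAG-Sun1/sfGFP*. In 3 libraries the reporter was switched on by *Mef2cSHF* Cre, which marks descendants of the secondary heart field (SHF), and in 3 by *Wnt1-Cre2*, which marks descendants of the cardiac neural crest (CNC). Each Cre marks a lineage and not a cell type, and living GFP+ cells of any type were sorted. The column names of the table mark both groups WT, and the number of mice in a library is not given in the sources used here. Libraries are numbered 1 to 3 in each lineage by their replicate number. Levels are in TPM, the share of a library's transcripts scaled to 1000000 after correction for gene length, so that genes can be compared with each other. The sequencing depth is unknown, since TPM does not keep it.

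FGFs are secreted proteins that bind heparan sulfate chains at the cell surface and, with them, bring receptor tyrosine kinases together in pairs. The active receptor signals through docking proteins to the Ras and MAP kinase relay, which switches on ETS transcription factors and, at the same time, Sprouty and dual-specificity phosphatase genes that damp the signal. In the embryo *Fgf8* and *Fgf10* are classical genes of the secondary heart field, and FGF signals guide outflow tract growth in both the heart field and the crest. The comparison asks how the adult descendants of these lineages differ in FGF genes.

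*Fgfr1* was the most abundant of the 10 genes in each of the 6 libraries, and no ligand was as high in any library. None of the 10 genes passed the test between lineages. Most ligands were at a few TPM or listed at 0, and *Fgf8* was listed at 0 throughout. Among 44 other genes of the pathway that were tested, the levels of *Sdc3*, *Sdc4*, *Hs6st2*, *Map2k1*, *Spry2*, *Spry4* and *Etv1* lay higher in every SHF library than in every CNC library, and that of *Gpc6* lay higher in every CNC library, although none of these passed the test across all genes. Of all genes tested 6.11% lay higher in every SHF library and 5.68% in every CNC library. The pathway list was chosen with earlier results of these data known.

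The libraries mixed several cell types. Summed levels of 8 fibroblast markers were above those of 8 smooth muscle markers in every library, at 26749 to 48258 TPM against 1322 to 3133 TPM. The fibroblast sum was 26749 to 29525 TPM in SHF and 36138 to 48258 TPM in CNC libraries, and none of the 8 genes was at 0 in any library. *Col1a1* and *Col3a1*, the fibrillar collagen genes among them, made up most of this gap. *Pi16* and *Clec3b* were, like them, higher in every CNC library, whereas *Dcn*, *Lum*, *Pdgfra* and *Dpt* overlapped between lineages. Endothelial markers summed to 82.8, 575 and 515 TPM in SHF libraries 1, 2 and 3 and to 60.8, 61 and 22.9 TPM in CNC libraries 1, 2 and 3. Of the 8 genes, 0 to 2 were at 0 in an SHF library and 5 or 6 in a CNC library, *Cdh5* among them in all 3. *Pecam1* was above 0 in all 6 libraries and overlapped between lineages, and *Kdr* and *Tek* were above 0 in some CNC libraries and at 0 in SHF library 2. Cardiomyocyte markers summed to 133 to 152 TPM in SHF and 0.73 to 37.9 TPM in CNC libraries, with 1 to 5 and 5 to 7 of 8 genes at 0. *Myh6* was at 0 in all CNC libraries. Schwann cell markers summed to 1.5 to 15.3 TPM in SHF and 21.4 to 94.4 TPM in CNC libraries, with 4 or 5 and 1 to 4 of 6 genes at 0, and *Sox10* was at 0 in all SHF libraries and in CNC library 1. *S100b*, of the same list, was above 0 in every library and overlapped between lineages. Leukocyte and mesothelial sums overlapped between lineages, at 0 to 103 and 0 to 66.7 TPM over all libraries, and *Ptprc* was at 0 throughout. *Xist* was above 0 only in SHF libraries 2 and 3, and the Y-linked *Ddx3y* only in the other 4 libraries, so that sex and lineage cannot be told apart except through SHF library 1. In such bulk samples fewer cells of a type and less RNA per cell cannot be told apart. From 9255 to 11858 genes were above 0 TPM in a library. Of 4056 genes with a mean of 5 to 20 TPM, 62.6% were listed at 0 in at least 1 library, so a value of 0 is given here as listed at 0 and not as absence.

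Among the receptors, *Fgfr1* encodes the receptor that is commonest in mesenchymal cells. It lies on chromosome 8 of GRCm38 from 25513654 to 25575718. Its exons overlap those of *Gm16159*, and a read of the shared part does not by itself show its gene. The level of *Fgfr1* was 115.38, 81.42 and 31.57 TPM in SHF libraries 1, 2 and 3 and 120.83, 39.02 and 117.42 TPM in CNC libraries 1, 2 and 3. Each lineage held high and low libraries, and the ranges overlapped almost entirely. The means were 76.1 ± 42.2 TPM (SD, n = 3) in SHF and 92.4 ± 46.3 TPM (SD, n = 3) in CNC, and the difference in log2(TPM + 1), SHF minus CNC, was -0.30 with a standard error of 0.64 (limma, adjusted p = 0.951). Within a library the level of *Fgfr1* was 1.45 to 10.9 times that of the next highest of the 10 genes.

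*Fgfr3*, on chromosome 5 from 33721674 to 33737068, encodes a receptor best known as a brake on bone growth. It was at 16.93, 56.1 and 4.69 TPM in SHF libraries 1, 2 and 3 and at 0.05, 7.96 and 2.66 TPM in CNC libraries 1, 2 and 3. SHF libraries 1 and 2 were above all CNC libraries, whereas SHF library 3 lay between CNC libraries 3 and 2. The means were 25.9 ± 26.9 TPM (SD, n = 3) and 3.56 ± 4.03 TPM (SD, n = 3). The difference in log2(TPM + 1) was 2.47 with a standard error of 1.40 and did not pass the test (limma, adjusted p = 0.874).

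*Fgfr2*, the receptor whose epithelial form binds *Fgf7* and *Fgf10*, was at 2.98, 3.29 and 6.81 TPM in SHF libraries 1, 2 and 3 and at 0.57, 1.58 and 10.77 TPM in CNC libraries 1, 2 and 3. It was above 0 in all 6 libraries but low in each. The highest and the lowest value both belonged to CNC, and the difference in log2(TPM + 1) was 0.49 with a standard error of 1.21 (limma, adjusted p = 0.959). Exons of *Fgfr2*, on chromosome 7 from 130162451 to 133123350 in its longest model, overlap exons of *Ctbp2*, and gene totals do not separate its epithelial from its mesenchymal form.

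*Fgfr1* made up 85.3, 57.8 and 73.3% of the summed level of *Fgfr1*, *Fgfr2* and *Fgfr3* in SHF libraries 1, 2 and 3 and 99.5, 80.4 and 89.7% in CNC libraries 1, 2 and 3. SHF library 1 exceeded CNC library 2, so the lineages overlapped (exact two-sided permutation test over libraries, n = 3 and 3, p = 0.2). *Fgfr3* held most of the remainder in SHF libraries 1 and 2 and in CNC library 2, with 12.5, 39.8 and 16.4%. *Fgfr2* held more of it than *Fgfr3* in SHF library 3, at 15.8 against 10.9%, in CNC library 3, at 8.23 against 2.03%, and in CNC library 1, at 0.469 against 0.0412%. The sum of the 3 genes was 43.1 to 141 TPM in SHF and 48.6 to 131 TPM in CNC libraries, so that the total receptor level varied about as much within a lineage as over all 6 libraries.

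**Figure D1:**
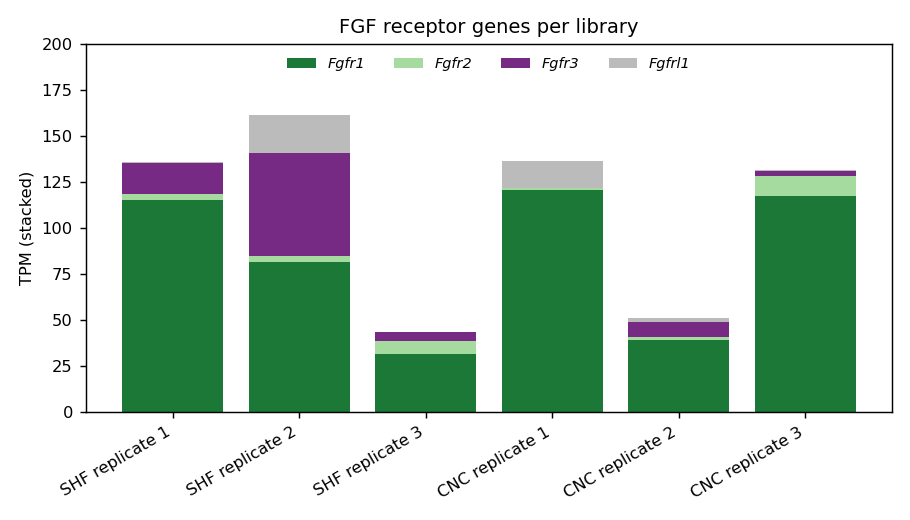
Stacked bars of *Fgfr1*, *Fgfr2*, *Fgfr3* and *Fgfrl1* levels in TPM (vertical axis) for each of the 6 libraries (horizontal axis). *Fgfr1* is the largest segment everywhere, from 31.57 to 120.83 TPM, and the *Fgfr3* segment is largest in SHF library 2 at 56.1 TPM.

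*Fgfrl1*, on chromosome 5 from 108692382 to 108706924, encodes an FGF receptor with no kinase domain. It was at 0.78, 20.81 and 0 TPM in SHF libraries 1, 2 and 3 and at 14.83, 2.38 and 0.38 TPM in CNC libraries 1, 2 and 3. A single library of each lineage was high and the others were under 3 TPM, and the difference in log2(TPM + 1) was -0.31 with a standard error of 1.45 (limma, adjusted p = 0.981).

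Among the ligands, *Fgf10*, which acts on neighbouring epithelium and on heart field progenitors, was the only 1 of the 6 above 0 in every library. It lies on chromosome 13 from 118669791 to 118792115, with exons that overlap those of *Gm16263*. Its level was 3.14, 25.86 and 1.94 TPM in SHF libraries 1, 2 and 3 and 24.76, 3.24 and 7.37 TPM in CNC libraries 1, 2 and 3. SHF library 2 and CNC library 1 were high and close to each other, and the remaining libraries were below 8 TPM. The difference in log2(TPM + 1) was -0.49 with a standard error of 1.38 (limma, adjusted p = 0.962).

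*Fgf7*, or keratinocyte growth factor, made by mesenchymal cells, lies on chromosome 2 from 126034658 to 126091185. It was at 9.86, 0 and 0 TPM in SHF libraries 1, 2 and 3 and at 75.1, 0.9 and 10.72 TPM in CNC libraries 1, 2 and 3. CNC library 1 held the highest value of any ligand in the data. All 3 CNC libraries were above 0 against 1 of the SHF libraries, but SHF library 1 exceeded CNC library 2. The difference in log2(TPM + 1) was -2.43 with a standard error of 1.61 (limma, adjusted p = 0.878).

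*Fgf18*, a ligand of the *Fgf8* subfamily with a part in cartilage and bone growth, lies on chromosome 11 from 33117430 to 33147400. It was at 0.14, 38.06 and 0 TPM in SHF libraries 1, 2 and 3 and at 0, 6.68 and 6.94 TPM in CNC libraries 1, 2 and 3. The SHF value rested on replicate 2, and the difference in log2(TPM + 1) was -0.15 with a standard error of 1.58 (limma, adjusted p = 0.996).

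*Fgf1*, or acidic FGF, which lacks a signal peptide, lies on chromosome 18 from 38838673 to 38929472. SHF library 1 held 15.28 TPM and SHF library 3 held 14.29 TPM, and the gene was listed at 0 in SHF library 2 and in all 3 CNC libraries. With only 2 libraries at 1 TPM or more it was not among the genes tested, and a permutation test of its values gave p = 0.4 (exact, two-sided, n = 3 and 3; such a test cannot give a p below 0.1). Across the whole table, 31 rows, or 0.127%, were above 5 TPM in SHF libraries 1 and 3 and at 0 in the other 4 libraries. Of the 8 cardiomyocyte markers, 2 were among these rows, *Myh6*, the adult mouse ventricular myosin heavy chain, at 24.23 and 26.73 TPM in SHF libraries 1 and 3, and *Actc1*, cardiac actin, at 42.14 and 28.19 TPM. The other 6 had other patterns, and all markers but *Myh6* are named after their values were seen. *Tnnt2*, cardiac troponin T, at 21.49, 87.44 and 60.93 TPM, and *Actn2*, an actin crosslinker of the sarcomere, at 5.71, 38.94 and 0 TPM in SHF libraries 1, 2 and 3, were highest in SHF library 2, where *Fgf1* was at 0. In CNC libraries *Tnnt2* was at 22.06 TPM in library 1 and *Actn2* at 6.15 TPM in library 3, and both were at 0 elsewhere. *Myl3*, a ventricular myosin light chain, was at 44.86, 6.54 and 34.88 TPM in SHF libraries 1, 2 and 3 and at 0 in CNC. *Tnni3*, cardiac troponin I, was at 13.34 TPM in SHF library 1 and 15.61 TPM in CNC library 1 and at 0 elsewhere, *Ryr2* was below 1 TPM and *Myl7* was at 0 throughout. The part of cardiomyocytes in the level of *Fgf1* was not tested.

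*Fgf2*, basic FGF, a mitogen of smooth muscle cells and fibroblasts, lies on chromosome 3 from 37348346 to 37410108. SHF library 1 held 4.22 TPM and CNC library 1 held 1.37 TPM, and the gene was listed at 0 in the other 4 libraries. Its exons overlap those of *Gm43439* and of *Nudt6*, which is read from the opposite strand. The protocol does not mark strand, so a read of the shared part does not by itself show its gene. *Fgf8*, on chromosome 19 from 45736798 to 45742915, was listed at 0 in all 6 libraries, SHF libraries included.

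**Figure D2:**
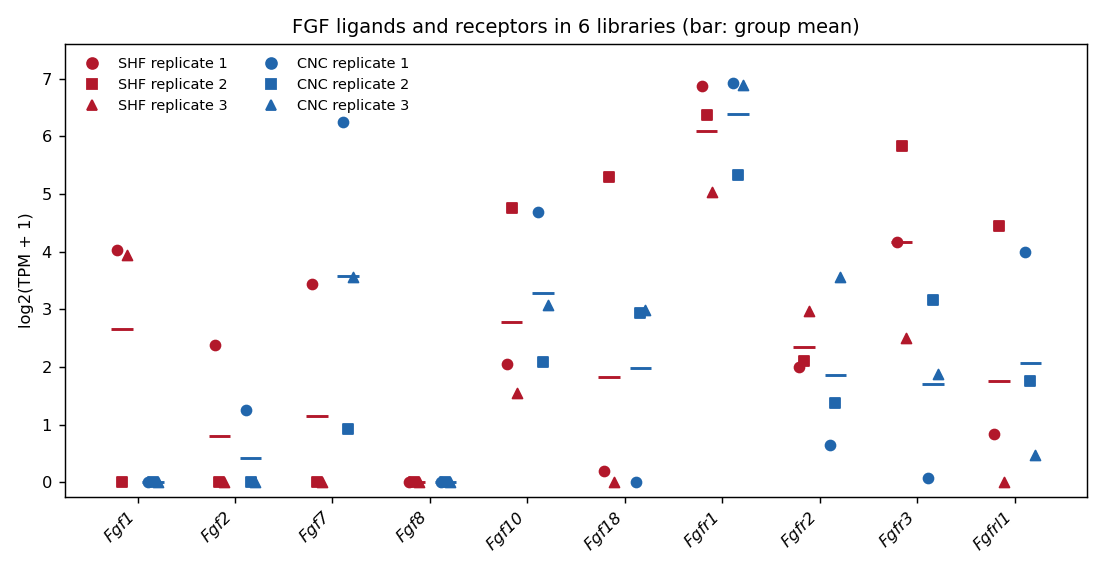
Level of each of the 10 genes as log2(TPM + 1) (vertical axis) in the 3 SHF libraries (red) and the 3 CNC libraries (blue), with marker shapes for library numbers and bars for group means. *Fgfr1* stands above the other genes in every library, and for no gene do the red and blue points separate.

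By median over the 6 libraries the order of levels was *Fgfr1* at 98.4 TPM, *Fgfr3* at 6.33 TPM, *Fgf7* at 5.38 TPM, *Fgf10* at 5.31 TPM, *Fgf18* at 3.41 TPM, *Fgfr2* at 3.14 TPM and *Fgfrl1* at 1.58 TPM, with *Fgf1*, *Fgf2* and *Fgf8* at a median of 0. From *Fgfr3* downward each gene's range over the libraries overlapped that of the next, so only the place of *Fgfr1* was fixed within each library. The summed level of the 6 ligands was 32.6, 63.9 and 16.2 TPM in SHF libraries 1, 2 and 3 and 101, 10.8 and 25 TPM in CNC libraries 1, 2 and 3. It was below that of the 3 receptors in every library. SHF library 2 held the highest value for 4 of the 9 genes that were above 0 anywhere, *Fgf10*, *Fgf18*, *Fgfr3* and *Fgfrl1*, although it had the fewest genes above 0 of all libraries. *Fgf1*, *Fgf2* and *Fgf7* were listed at 0 in the same library.

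Of the 10 genes, 7 had at least 1 TPM in at least 3 libraries and were tested, and *Fgf1*, *Fgf2* and *Fgf8* were not. None of the 7 had an adjusted p under 0.05 by limma with Benjamini-Hochberg adjustment over 10185 genes, of which 0% had one. At an unadjusted p under 0.05 the count was 0 of 7, against 5.86% of all genes tested. For none of the 7 did the lineages fail to overlap, against 11.8% of all genes tested. The median difference of the 7 genes was -0.30 on the log2(TPM + 1) scale, with 2 genes higher in SHF and 5 in CNC by the mean on that scale, and the median of all genes tested was 0.02. By the mean in TPM the direction of *Fgf18* and *Fgfrl1* was the opposite, and 4 genes were higher in SHF and 3 in CNC. The median of the 7 was -1.48 without SHF library 2, 0.15 without SHF library 1 and 0.23 without SHF library 3. The study set a threshold of 5 TPM for lineage-exclusive transcripts. Read as more than 5 TPM in all libraries of a lineage and a listing at 0 in all of the opposite one, the filter kept none of the 10 genes. Of all rows, 0.0778% were SHF-exclusive and 0.0614% CNC-exclusive. *Fgf1* missed this filter through SHF library 2 alone. Without that library it was SHF-exclusive, as were 0.221% of all rows.

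The other genes of the pathway were taken from a list of 75, of which 44 were tested. That list was chosen with earlier results of these data known, so its shares beside those of all genes are description only. By limma 0 of the 44 had an adjusted p under 0.05, and 5, or 11.4%, had an unadjusted p under 0.05, all with the higher level in SHF, a direction that held 2.69% of all genes tested, and none with the higher level in CNC, against 3.17%. In 7 of the 44, or 15.9%, every SHF library was above every CNC library, against 6.11% of all genes tested. In 1, or 2.27%, every CNC library was above every SHF library, against 5.68% of all genes tested. With a library left out, which can only add genes, the count with SHF above was 8 to 11, or 18.2 to 25%, against 10 to 12.9% of all genes tested. The count with CNC above was 1 to 5, or 2.27 to 11.4%, against 9.53 to 12.1%. The median difference of the 44 was 0.20 on the log2(TPM + 1) scale. Endothelial and cardiomyocyte marker sums were also higher in every SHF library, and fibroblast and Schwann cell marker sums in every CNC library, and their part in these levels was not tested.

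**Figure D3:**
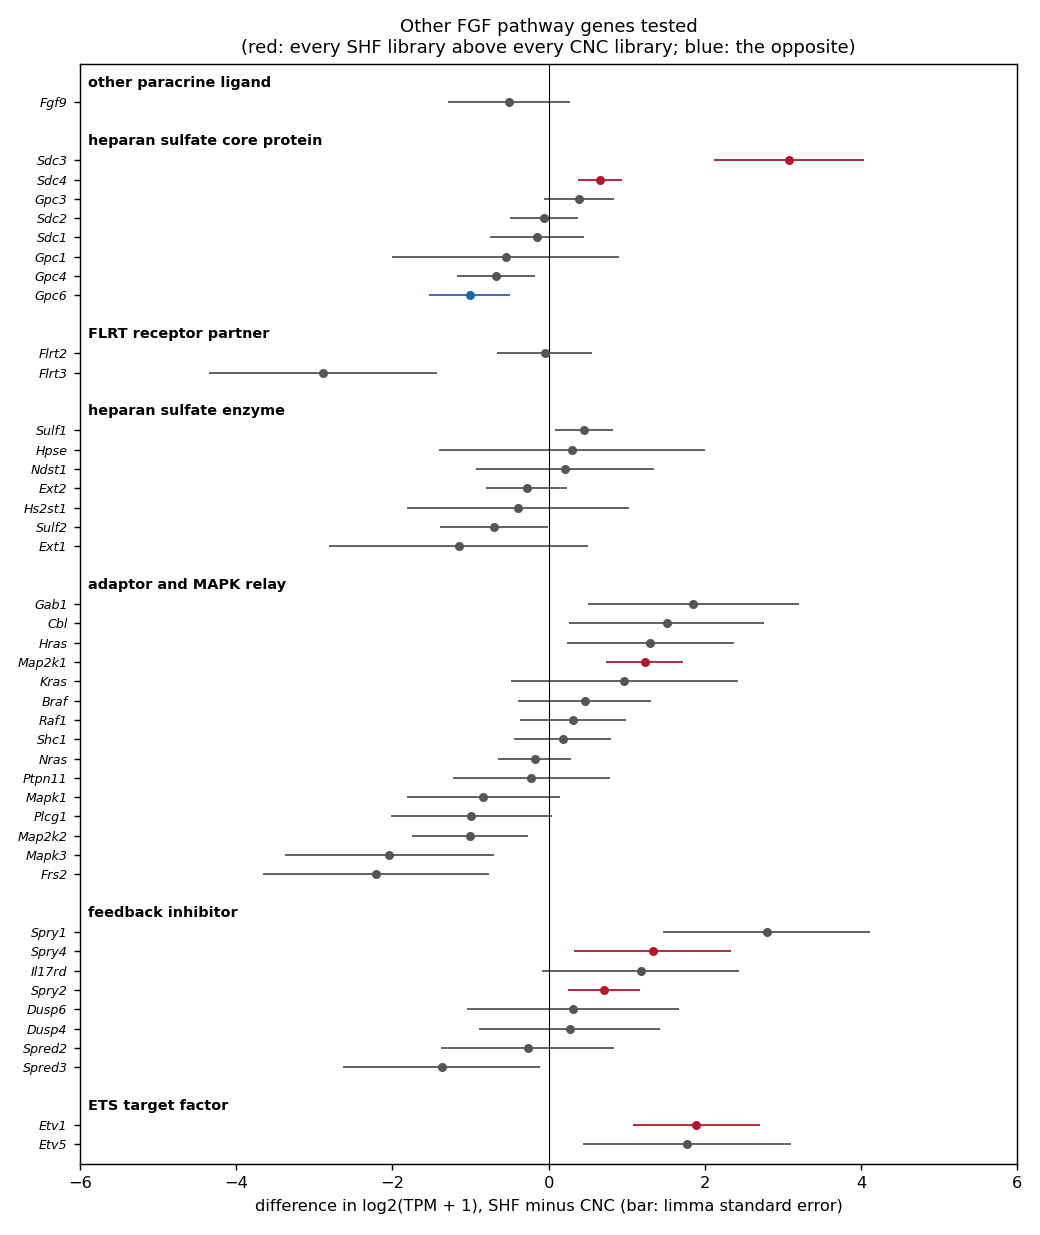
Difference in log2(TPM + 1), SHF minus CNC (horizontal axis), with the limma standard error as a bar, for the tested FGF pathway genes grouped by role. Red genes had every SHF library above every CNC library and the blue gene, *Gpc6*, the opposite. *Hs6st2* is left out because it was listed at 0 in all CNC libraries.

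Heparan sulfate core proteins carry the sugar chains that FGFs need to engage their receptors. Of 10 such genes 8 were tested, and the lineages did not overlap in 3, against 11.8% of all genes tested. *Sdc4*, the syndecan of focal adhesions, was the most abundant by mean, at 447.19, 588.4 and 532.47 TPM in SHF libraries 1, 2 and 3 and 342.13, 357.09 and 288.87 TPM in CNC libraries 1, 2 and 3. Every SHF library was above every CNC library, although the SHF libraries differed among themselves by more than the gap between the lowest SHF and the highest CNC library. The means were 523 ± 71.1 and 329 ± 35.9 TPM (SD, n = 3 each), a difference of 0.66 with a standard error of 0.28 on the log2(TPM + 1) scale (limma, adjusted p = 0.82).

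*Sdc3*, a syndecan best known from nerve and muscle, was at 109.91, 106.75 and 50.74 TPM in SHF libraries 1, 2 and 3 and at 32.01, 10.98 and 1.58 TPM in CNC libraries 1, 2 and 3. The lowest SHF library exceeded the highest CNC library, and the difference in log2(TPM + 1) was 3.08 with a standard error of 0.96 (limma, adjusted p = 0.629). Exons of *Sdc3* overlap those of the non-coding genes *Gm12970* and *Gm26716*. *Gpc6*, a glypican, had the opposite order, at 31.74, 38.45 and 38.45 TPM in SHF and 82.22, 68.26 and 71.07 TPM in CNC libraries 1, 2 and 3. Its libraries lay close together in both lineages, with means of 36.2 ± 3.87 and 73.9 ± 7.38 TPM (SD, n = 3 each) and a difference of -1.01 with a standard error of 0.52 (limma, adjusted p = 0.874). *Gpc3*, the most abundant glypican, was at 239.27 to 712.01 TPM in SHF and 181.97 to 390.01 TPM in CNC libraries and overlapped.

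Among 10 enzymes that build or trim heparan sulfate, *Hs6st2*, which adds sulfate at the 6-O position, a mark that FGFs read, was at 7.1, 42.4 and 2.74 TPM in SHF libraries 1, 2 and 3 and listed at 0 in all 3 CNC libraries (limma, adjusted p = 0.688). It missed the lineage-exclusive filter only through SHF library 3, and was SHF-exclusive at a threshold of 1 TPM, as were 0.152% of all rows. *Hs6st2* lies on chromosome X, from 51387212 to 51681856. The part of sex in its level was not tested. *Sulf1*, which removes the same sulfate outside the cell, was the most abundant enzyme of the group by mean, at 145.5 to 202.46 TPM in SHF and 114.54 to 155.92 TPM in CNC libraries. The single overlap was CNC library 2 above SHF library 3, and the difference was 0.45 with a standard error of 0.37 (limma, adjusted p = 0.891). *Ext2*, a polymerase of the chain, overlapped at 47.62 to 150.41 and 72.95 to 122.06 TPM. The receptor partner *Flrt3* was at 19.15, 0 and 0 TPM in SHF and 27.47, 15.41 and 16.61 TPM in CNC libraries 1, 2 and 3, and *Flrt2* was above 27 TPM in every library with overlapping lineages.

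Of 18 adaptor and MAP kinase relay genes 15 were tested, and the lineages did not overlap in 1, no larger a share than the 11.8% of all genes tested. *Map2k1*, which encodes the kinase MEK1, was at 82.4, 132.16 and 118.78 TPM in SHF libraries 1, 2 and 3 and 57.23, 35.69 and 46.75 TPM in CNC libraries 1, 2 and 3. All SHF libraries were above all CNC libraries, with means of 111 ± 25.8 and 46.6 ± 10.8 TPM (SD, n = 3 each) and a difference of 1.23 with a standard error of 0.49 (limma, adjusted p = 0.796). The other genes of the relay ran in both directions, with 8 of the 15 higher in SHF and 7 in CNC by the mean on either scale. *Shc1* and *Nras*, the most abundant of them by mean, overlapped at 38.27 to 207.92 against 55.21 to 109.16 TPM and at 57.2 to 138.33 against 89.18 to 122.34 TPM.

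Feedback inhibitors and ETS factors are the usual readouts of FGF receptor activity, although other receptor tyrosine kinases induce them too. Of 10 feedback genes 8 were tested, 6 with the higher mean of log2(TPM + 1) in SHF and 2 in CNC, or 7 and 1 by the mean in TPM. Of all 10185 genes tested, 5215 had the higher mean of log2(TPM + 1) in SHF and 4970 in CNC. The median difference of the 8 in log2(TPM + 1) was 0.51. The lineages did not overlap in 2 of the 8, against 11.8% of all genes tested. *Spry2* was at 78.62, 120.93 and 113.79 TPM in SHF libraries 1, 2 and 3 and 71.46, 69.14 and 48.75 TPM in CNC libraries 1, 2 and 3. The lineages did not overlap but came within 8 TPM of each other, and the difference was 0.71 with a standard error of 0.46 (limma, adjusted p = 0.875). *Spry4* was at 18.58, 24.61 and 27.74 TPM in SHF and 11.58, 4.15 and 12.88 TPM in CNC libraries 1, 2 and 3, again with no overlap, and the difference was 1.33 with a standard error of 1.00 (limma, adjusted p = 0.888).

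*Spry1*, chosen after its values were seen, was at 49.41, 17.14 and 54.54 TPM in SHF and 0, 5.12 and 24.29 TPM in CNC libraries 1, 2 and 3, so that SHF library 2 was below CNC library 3. Summed over the 4 Sprouty genes, a sum also chosen after the values were seen and given with no test, the level was 147, 163 and 196 TPM in SHF libraries 1, 2 and 3 and 83, 93.7 and 85.9 TPM in CNC libraries 1, 2 and 3. Most of this sum was *Spry2*, by mean 104.4 of 168.5 TPM in SHF and 63.12 of 87.55 TPM in CNC, so it adds little to that gene. *Spry3* was at 15.29 TPM in CNC library 2 and at 0 elsewhere. *Dusp6*, a phosphatase of the MAP kinase ERK, did not separate the lineages, at 86.08, 85.27 and 1.28 TPM in SHF and 27.94, 7.6 and 35.15 TPM in CNC libraries 1, 2 and 3.

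*Etv1*, an ETS factor of the PEA3 group, was at 29.61, 87.56 and 42.9 TPM in SHF libraries 1, 2 and 3 and at 8.27, 18.81 and 11.63 TPM in CNC libraries 1, 2 and 3. The lowest SHF library was above the highest CNC library, and the means were 53.4 ± 30.4 and 12.9 ± 5.38 TPM (SD, n = 3 each). The difference in log2(TPM + 1) was 1.89 with a standard error of 0.81 and did not pass the test (limma, adjusted p = 0.82). Its paralogue *Etv5* was at 30.29, 34.15 and 26.16 TPM in SHF and 30.76, 0 and 22.69 TPM in CNC libraries 1, 2 and 3, level between the lineages but for CNC library 2.

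**Figure D4:**
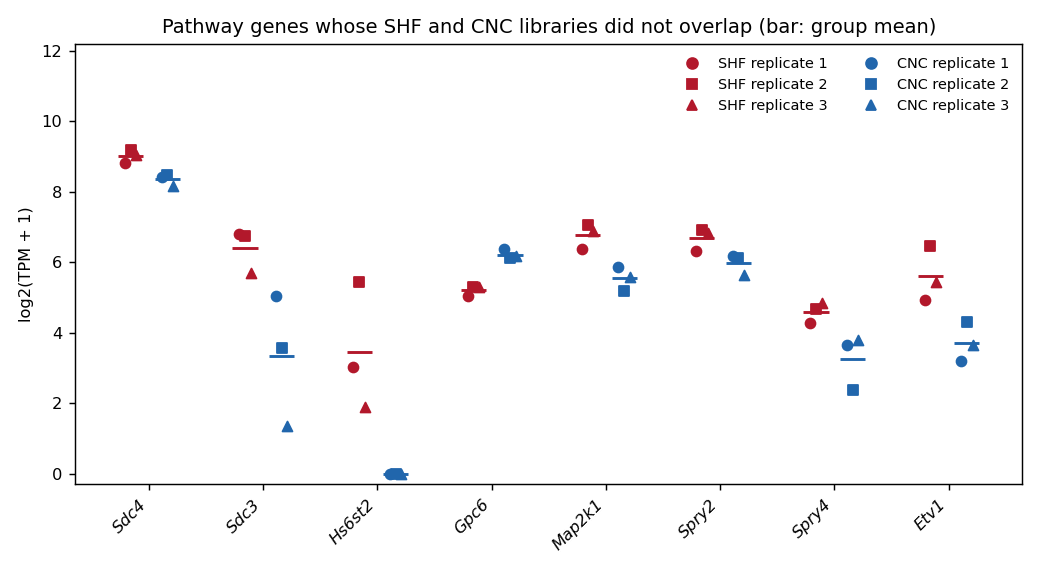
Level as log2(TPM + 1) (vertical axis) of the 8 pathway genes whose libraries did not overlap between lineages, for SHF (red) and CNC (blue), with marker shapes for library numbers and bars for group means. *Gpc6* is the single gene with the blue points on top, and *Hs6st2* is at 0 in all 3 CNC libraries.

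Promoters were searched for CCGGAA, the core letters of ETS factor sites, on both strands, in RefSeq windows of the 250 bases before a start site. The letters were in 12% of all 32851 windows. Of 8 windows found for 7 of the 10 FGF ligand and receptor genes, 1 held them, that of *Fgfrl1*. Of 8 windows found for 6 of the 7 pathway genes that were higher in every SHF library, 2 held them, those of *Sdc4* and *Map2k1*, and *Spry4* had no window. The windows of *Map2k1* (GRCm38, chr9:64253606-64253855, minus strand) and, without the letters, of *Spry2* (chr14:105896820-105897069, minus strand) are shown, the motif in capitals. Such a match is a description of these letters and not a binding site.
Map2k1: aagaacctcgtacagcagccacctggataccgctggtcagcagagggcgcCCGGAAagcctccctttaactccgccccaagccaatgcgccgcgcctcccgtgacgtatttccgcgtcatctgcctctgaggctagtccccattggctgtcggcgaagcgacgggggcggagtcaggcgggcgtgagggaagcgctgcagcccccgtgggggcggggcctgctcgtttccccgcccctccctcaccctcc
Spry2: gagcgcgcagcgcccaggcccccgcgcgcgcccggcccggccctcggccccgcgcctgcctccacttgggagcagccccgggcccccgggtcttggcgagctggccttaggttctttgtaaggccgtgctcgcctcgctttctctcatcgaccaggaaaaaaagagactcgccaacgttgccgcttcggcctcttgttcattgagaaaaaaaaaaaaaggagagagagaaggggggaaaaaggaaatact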

How the data were processed

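Sorted GFP+ cells were lysed, and RNA was amplified by the SmartSeq2 protocol, which has no molecular identifiers and does not mark strand. According to the submitters' processing notes the mm10 build, Bowtie2 and RSEM 1.2.25 were used, and the authors deposited TPM for each of the 6 libraries. The annotation used is not given in the sources used here. Columns were matched by library code, and replicate numbers are those of the labels. No counting interval can be derived from TPM. The study calls the 3 libraries of a lineage biological replicates, without the number of mice in each, and p-values measure the spread between them.

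SHF minus CNC differences in log2(TPM + 1) were fitted with limma 3.58.1 in R 4.3.3 (lmFit, trended eBayes). Genes had to reach 1 TPM in 3 or more libraries, which 10185 did, and p-values were adjusted over all of these by Benjamini-Hochberg at a threshold of 0.05. This scale understates fold changes of low genes. Single values were compared by exact permutation over the 20 splits. The fit was tested on simulated data. Positions and exon overlaps came from GENCODE M21 (GRCm38, also called mm10) by symbol. Promoter windows came from RefSeq (GRCm38.p6) and were found for 7 of the 10 genes, not for *Fgf1*, *Fgf8* or *Fgfr1*.

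The 10 genes, the pathway list and the marker lists were chosen with earlier results of these data known. The genes named are the 10, the 2 most abundant genes by mean of each role of the pathway list, each tested gene of that list whose lineages did not overlap, and a fixed set of cell markers. *Spry1*, *Spry3*, *Fgf21*, *Fgfr4* and the cell type markers *Actc1*, *Tnnt2*, *Actn2*, *Myl3*, *Tnni3*, *Ryr2*, *Myl7*, *Col1a1*, *Col3a1*, *Pi16*, *Clec3b*, *Dpt*, *Kdr*, *Tek* and *S100b* were named beside these after their values were seen. Alternatives were pseudocounts of 0.1 and 5, no filter, a filter at 5 TPM, quantile normalization, median-of-ratios rescaling, an untrended eBayes, library weights, a block for the replicate number, changed limits for exclusive transcripts, and fits that each lacked 1 library.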

Additional observations from a re-analysis of the deposited data

How the results depend on the processing

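No FGF gene passed the threshold under any alternative. Over all genes the count was 0 except with a pseudocount of 5, where it was 1, a gene outside the FGF lists. In the main fit 0 of the 7 and 5 of the 44 pathway genes had an unadjusted p under 0.05 by limma, against 5.86% of all genes tested. None of them passed after adjustment over all genes tested. There were 3 libraries per lineage, and their depth is unknown. Across the fits that each left out 1 library, the median difference of the 7 tested of the 10 genes was lowest without SHF library 2, at -1.48, and highest without SHF library 3, at 0.23, and the number of the 10 exclusive to a lineage ran from 0 to 1, the 1 being *Fgf1* without SHF library 2. With fewer libraries to compare, counts of genes whose lineages do not overlap can only rise. Among pathway genes they ran from 8 to 11 with SHF above, with 11 without SHF library 2 and without SHF library 3, and from 1 to 5 with CNC above, with 5 without CNC library 3, 4 without SHF library 1 and without CNC library 2, 3 without SHF library 3 and 2 without CNC library 1. As shares of the 44 pathway genes tested, these counts were 18.2 to 25% with SHF above and 2.27 to 11.4% with CNC above. Of all genes tested, 10 to 12.9% had SHF above and 9.53 to 12.1% CNC above in these comparisons. Rescaling and quantile normalization left the pathway counts at 7 and 1. These alternatives for pathway genes were chosen after seeing the data.

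Of 371 values of 25 named genes under the alternatives, 346 kept direction and side of the threshold and 25 changed sign, 23 of them with a library left out. The other 2 were *Fgf18*, 0.22 with a pseudocount of 5, and *Fgf9*, 0.04 with quantile normalization. Dropping the filter, the filter at 5 TPM, the untrended eBayes and the replicate block leave each difference unchanged by construction. Those fits could not change a sign. With a library left out the log2 difference ran from -1.48 to 0.21 for *Fgf10*, -1.88 to 0.76 for *Fgf18*, -0.82 to 0.23 for *Fgfr1*, -0.11 to 1.34 for *Fgfr2*, -1.65 to 0.65 for *Fgfrl1*, -0.06 to 0.73 for *Gpc3*, -0.53 to 0.30 for *Flrt2*, -0.71 to 0.11 for *Ext2*, -0.39 to 0.81 for *Shc1*, -0.48 to 0.15 for *Nras* and -0.57 to 2.06 for *Dusp6*. The cause was not tested. That of *Fgfr3* stayed between 1.63 and 3.30 and that of *Fgf7* between -3.75 and -1.09. That of *Spry4* was lowest without CNC library 2, at 0.88. With pseudocounts of 0.1 and 5 the difference was 3.47 and 1.56 for *Fgfr3* and -4.33 and -1.44 for *Fgf7*. The median over the 7 tested of the 10 genes was then -0.62 and -0.03.

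Both lineages use replicate numbers 1 to 3, but the mice differ in genotype. Same-numbered libraries deviated from their lineage means with correlations of -0.0113, -0.00438 and -0.0106, which does not pair them. Under a replicate block 0 genes passed the threshold. The median difference of the 7 genes was again -0.30, which a block balanced over the lineages cannot change.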

Other observations

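The remaining FGF genes were mostly at or near 0 in these libraries. Of all 18 genes for secreted FGF ligands, the 6 above included, 8 were listed at 0 in all 6 libraries. Among the 9 other paracrine ligands *Fgf9* was at most 2.06 TPM and *Fgf16* at most 2.83 TPM. Endocrine FGFs need a klotho protein to bind their receptors. Of these *Fgf23* was at 5.54 TPM in SHF library 1 and *Fgf15* at 0.23 TPM in SHF library 2 and 3.26 TPM in CNC library 1, each at 0 elsewhere, and *Fgf21* was at 0 throughout. The klotho genes were nearly as rare, with *Kl* at 0.36 TPM in CNC library 3 and *Klb* at 4.64 TPM in CNC library 1, and *Fgfr4*, the receptor that pairs with *Klb* in liver, was at 0 in every library. The carrier *Fgfbp3* was at 9.02 TPM in CNC library 3 alone.

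The FGF homologous factors stay inside the cell and regulate sodium channels instead of binding receptors. *Fgf13*, on chromosome X, was at 15.87 and 0.2 TPM in SHF libraries 1 and 2 and 0.2 and 30.99 TPM in CNC libraries 2 and 3, and was at 0 in SHF library 3 and CNC library 1. *Fgf14* was at 32.74 and 3.38 TPM in SHF libraries 2 and 3 and 0.12 TPM in CNC library 3, and at 0 in the other libraries. Neither was among the genes tested, since each reached 1 TPM in only 2 libraries.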
